A study of Mus musculus with 8 samples.

Results

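The 38 genes described here encode the machinery of mitosis: cyclins and CDK1 with its activators, mitotic kinases, the chromosomal passenger complex, the spindle checkpoint, centromere and kinetochore proteins, spindle motors, cytokinesis factors, and the ligase that ends mitosis. They form a list chosen by function, and their probes were found by the accession each probe carries on the array, which matched all 38 among the 21154 genes named in this way. The RNA came from mouse embryonic stem cells that all lacked H-Ras and N-Ras (H-Ras-/-;N-Ras-/-), carried a floxed K-Ras (K-Raslox/lox) and held RERTert/ert, a Cre recombinase expressed from the RNA polymerase II locus and switched on by 4-hydroxytamoxifen (OHT). By label the cells were ERF-WT or ERF-KO. OHT was added to some cultures of both genotypes for 2 days or more, meant to delete K-Ras and so leave the cells without RAS, and the others had none. ERF is an ETS-family repressor that ERK holds out of the nucleus, and the design asks what the loss of RAS does with and without it. Each of the 4 groups had 2 arrays, 1 from an A pool and 1 from a B pool of cells: pools A1 and B1 were wild type and pools A2 and B2 labelled knockout. The sample from a pool mixed 2 clones and was taken both without and with OHT. All cells grew on gelatin in serum with LIF. No group was given OHT with its RAS meant to stay, so OHT itself and RAS loss cannot be told apart.

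Entry into mitosis is driven by CDK1 bound to B-type cyclins, which CDC25 phosphatases activate, and the spindle checkpoint holds the cell there until every kinetochore is attached. The anaphase-promoting complex (APC/C) with CDC20 and the ubiquitin-conjugating enzyme UBE2C then marks cyclin B and securin for destruction, and separase (Espl1) cuts the sister chromatids apart. The genes are transcribed late in the cell cycle through the MuvB complex with the factors MYBL2 and FOXM1, which acts on the cell cycle homology region (CHR), often beside CCAAT boxes that bind NF-Y. Embryonic stem cells cycle fast with short gap phases, and a population average of these genes moves with the share of cells in G2 and mitosis.

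Promoter sequence was at hand for 31 of the 38 genes, from RefSeq on mouse build GRCm38.p6, in a window from 250 bases before to 50 bases after each annotated start. The CHR core TTTGAA, or TTCAAA on the other strand, lay in the window of 22 of the 31 genes (71.0%), against 20.2% of all 27025 genes with a window. CCAAT or ATTGG lay in 24 (77.4%), against 41.1% of all genes. Both lay in 19 (61.3%), against 7.97% of all genes. The E2F letters TTTCCCGC or GCGGGAAA were in 0 of the 31 windows and in 1.24% of all, the ETS letters CCGGAAGT or ACTTCCGG in 3 (9.68%, all genes 4.31%) and CACGTG in 3 (9.68%, all genes 8.09%). A match to letters is a description and not a binding site. The 6 sequences that follow are the 150 bases before the start, 5′ to 3′ on the gene's strand, with these 2 motifs in capitals. Cdk1 (chr10:69352913-69353062, minus strand) is shown as the engine of mitotic entry and Cdc20 (chr4:118437344-118437493, minus strand) as the gene with the lowest value after OHT in the labelled knockout. Ube2c (chr2:164769779-164769928, plus strand) is its partner at the APC/C. Top2a (chr11:99024190-99024339, minus strand), Cenpa (chr5:30666736-30666885, plus strand) and Mybl2 (chr2:163054485-163054634, plus strand) differed between pools. Cdk1 and Cdc20 hold the CHR core 15 and 18 bases before the start, Top2a and Ube2c hold it 23 and 29 bases before, Cenpa has only CCAAT boxes in this stretch, and Mybl2 has neither.
Cdk1: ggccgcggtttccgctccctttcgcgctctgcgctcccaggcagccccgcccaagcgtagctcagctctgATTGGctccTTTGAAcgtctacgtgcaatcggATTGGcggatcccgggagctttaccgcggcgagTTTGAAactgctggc
Cdc20: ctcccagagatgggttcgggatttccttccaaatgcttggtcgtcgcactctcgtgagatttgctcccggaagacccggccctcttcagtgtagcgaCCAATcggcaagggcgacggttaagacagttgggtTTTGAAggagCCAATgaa
Ube2c: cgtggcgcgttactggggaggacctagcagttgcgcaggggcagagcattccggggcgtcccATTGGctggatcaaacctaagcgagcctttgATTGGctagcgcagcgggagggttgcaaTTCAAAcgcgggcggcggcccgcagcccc
Top2a: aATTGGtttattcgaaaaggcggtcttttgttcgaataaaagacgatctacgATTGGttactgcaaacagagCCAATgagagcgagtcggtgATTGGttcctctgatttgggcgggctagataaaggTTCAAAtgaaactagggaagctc
Cenpa: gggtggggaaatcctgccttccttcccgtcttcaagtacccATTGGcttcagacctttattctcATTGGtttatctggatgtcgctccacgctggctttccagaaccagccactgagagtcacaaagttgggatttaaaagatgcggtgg
Mybl2: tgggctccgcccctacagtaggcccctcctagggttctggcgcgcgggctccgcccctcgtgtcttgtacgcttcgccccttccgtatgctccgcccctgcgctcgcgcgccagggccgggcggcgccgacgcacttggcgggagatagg

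Levels are log2 signals relative to the 75th percentile of the same array, so 0 is a probe at that percentile and a difference of 1 is 2-fold. They compare arrays for one probe and not one gene with another. Between 54.0 and 63.6% of the spots of an array were well above background, and 0 were saturated. Compact dark patches covered up to 4.40% of the spots of an array, and 3 arrays had none. Slide 2 held both arrays of pool B1 and slide 1 the other 6. Erf itself read 4.91, 4.79, 5.22 and 4.73 in the wild type arrays and 3.26 and 3.73 in pool A2, but 5.43 and 5.13 in pool B2. The pool labelled knockout B2 was thus at the wild type level, and whether the Erf probe falls inside the deleted stretch is not known. The groups are therefore called labelled knockout, and pools A2 and B2 are also given apart.

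Of the 38 genes, 37 had a probe well above background on both arrays in 1 or more of the groups and were tested among 15116 genes. The missing gene is Aurkb, the kinase of the passenger complex, whose single probe was well above background on 2 of 8 arrays. A second gene had a damaged value: the spot of Espl1 on the untreated A1 array lay in a dark patch and read -2.78, while the other 7 arrays read 2.26 to 3.23. Its own changes are given without that spot unless stated, while counts and medians from the fits on group or pool means include it.

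**Figure D1:**
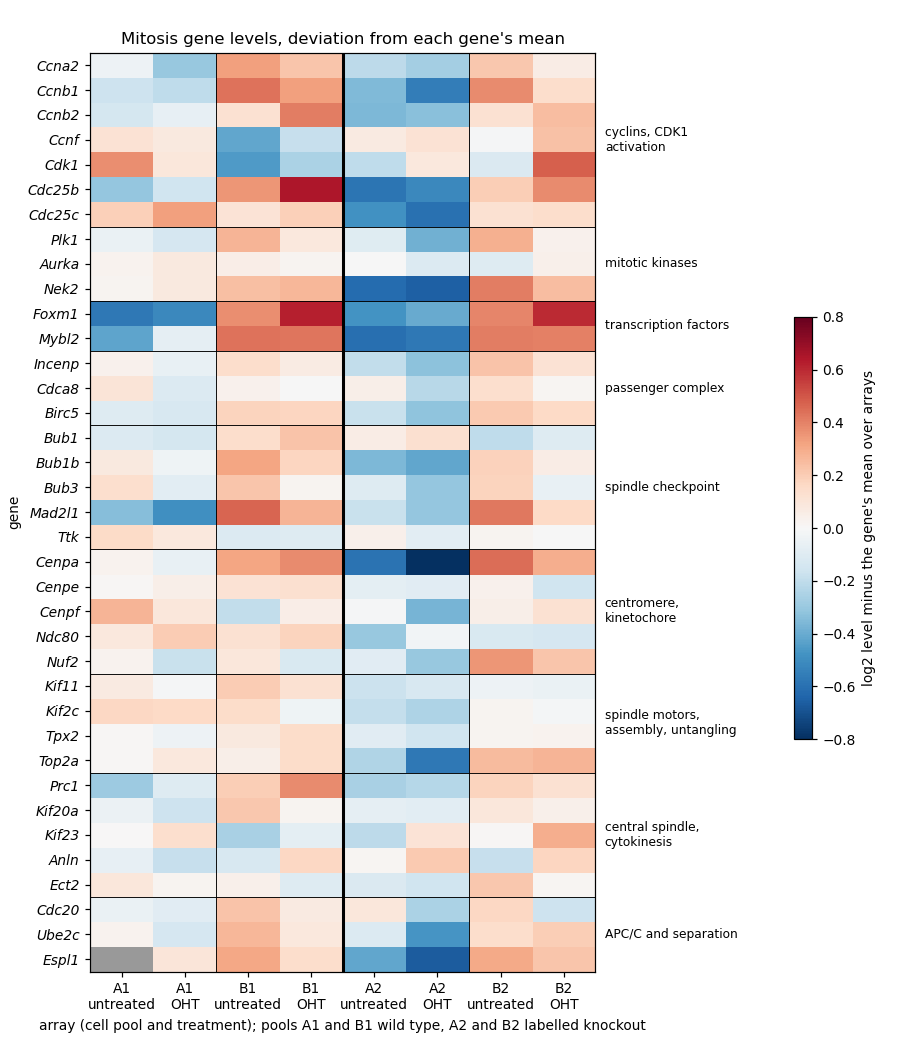
Heat map of the 37 tested mitosis genes (rows, by role) on the 8 arrays (columns), as the log2 level minus the gene's mean over the arrays. Red is above and blue below that mean, and the grey field is the Espl1 spot in a dark patch. Neighbouring columns of one pool look alike, and most genes are blue in pool A2 and red in pools B1 and B2.

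The mitosis genes kept close to one level over the 8 arrays. The range from the lowest to the highest array was 0.19 for Aurka, the spindle-pole kinase, and 0.26 for the checkpoint kinase Ttk, and it passed 1 for 5 genes: Mybl2 with 1.03, Nek2 with 1.06, Foxm1 with 1.19, Cdc25b with 1.23 and Cenpa with 1.26. The median SD over the arrays was 0.207 for the 35 genes with all 8 spots outside patches, against 0.314 for all 14010 such genes. Differences between pools held a median 87.3% of that variation and OHT 8.06%, where all genes had 70.7 and 18.7%. Most mitosis genes had a probe brighter than most probes of the array, and these sets were not matched for signal level. The part of signal level in the smaller SD was not tested. The pool share was highest in Nek2 (98.7%), Cdc25c (97.8%), Cenpa (97.3%) and Foxm1 (97.2%). OHT held the larger share in Cdc20 (63.0%), in Cdca8 (56.4%) and in Anln, whose OHT share was 43.7% against 30.0% for pools.

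After OHT in the wild type the mitosis genes read almost as before. The fitted changes had a median of -0.01 (all genes -0.03), with 18 genes above 0 and 19 below, and the median ran from -0.092 to 0.052 when single arrays were left out. Apart from Espl1 with its damaged spot, all 36 others lay within 0.22 of 0, where 19.3% of all genes had moved by 0.5 or more. The sets were not matched for signal level here either. With limma on the 4 group means, 0 mitosis genes passed an adjusted p of 0.05 and so did 0% of all genes, of which 432 were higher and 486 lower at an unadjusted p under 0.05. A paired limma fit kept the pools as blocks and left out the patches, with a robust variance that follows the signal level. It called 17.3% of all genes (7.95% higher and 9.31% lower) and again 0 mitosis genes. In that fit the 95% interval of every one of the 37 changes lay between -0.48 and 0.55, not adjusted for their number, so that a 2-fold change was outside each. On group means this held for 29 of the 37 intervals. OHT was above untreated in both pools for 10 genes and below in both for 16, where all genes had 33.8 and 40.7%.

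Among the cyclins and CDK1, no gene passed in the wild type. Ccnb1, the cyclin B1 that carries CDK1 into mitosis, read 5.72 in pool A1 and 6.32 in pool B1 untreated, and 5.69 and 6.22 after OHT. Its values before and after OHT overlapped, with a change of -0.07 (SE 0.41, adjusted p = 1.00 by limma on group means). Cdk1 read 3.55 and 2.72 untreated and 3.27 and 2.92 after OHT, in the same order of pools. It went down in pool A1 and up in pool B1, with a mean change of -0.04 (SE 0.33, adjusted p = 1.00 by limma). Ccna2, the cyclin of S phase and early mitosis, read 4.36 and 4.73 before and 4.10 and 4.62 after OHT. It was lower in both pools, by -0.18 on average, and the groups overlapped (paired limma, adjusted p = 0.126). Cdc25b, the phosphatase that starts CDK1 activation at the centrosome, had the highest value of the undamaged genes. It read 1.69 and 2.36 untreated and 1.84 and 2.65 after OHT, a change of 0.22 with overlapping groups (paired limma, adjusted p = 0.132).

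The kinases and transcription factors did not pass either. Plk1, the polo kinase that acts from mitotic entry to exit, read 5.90 and 6.22 untreated and 5.82 and 6.04 after OHT. Aurka read 5.38 and 5.40 untreated and 5.43 and 5.37 after, the tightest set of all members. Foxm1, the late cell cycle activator, read 1.70 and 2.65 untreated and 1.76 and 2.90 after. In each of these the 2 untreated and the 2 treated arrays overlapped, and for Foxm1 the pools stood further apart than the treatments. Mybl2, the B-Myb subunit of the MuvB activator, read 7.01 and 7.87 untreated and 7.36 and 7.86 after, a difference seen in pool A1 only. Their fitted changes were -0.13 for Plk1, 0.01 for Aurka, 0.15 for Foxm1 and 0.17 for Mybl2.

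The lowest values in the wild type belonged to the checkpoint and kinetochore. Bub3, which brings BUB1 to kinetochores, read 5.01 and 5.10 untreated and 4.79 and 4.90 after OHT. Both treated arrays lay below both untreated ones, with a change of -0.21 (paired limma, adjusted p = 0.059; group means, 1.00). Nuf2, a subunit of the NDC80 microtubule anchor, read 0.73 and 0.80 untreated and 0.52 and 0.58 after, also without overlap, a change of -0.21 (paired limma, adjusted p = 0.192). Prc1, the bundler of the central spindle, read 4.63 and 5.11 untreated and 4.81 and 5.29 after. It was higher in both pools by 0.18, with overlapping groups (paired limma, adjusted p = 0.094). Espl1 read 3.23 untreated and 3.07 after OHT in pool B1, and 3.02 after OHT in pool A1. With the damaged spot its fitted change was 2.81 (SE 1.81), and without it -0.17 (paired limma, adjusted p = 0.399).

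**Figure D2:**
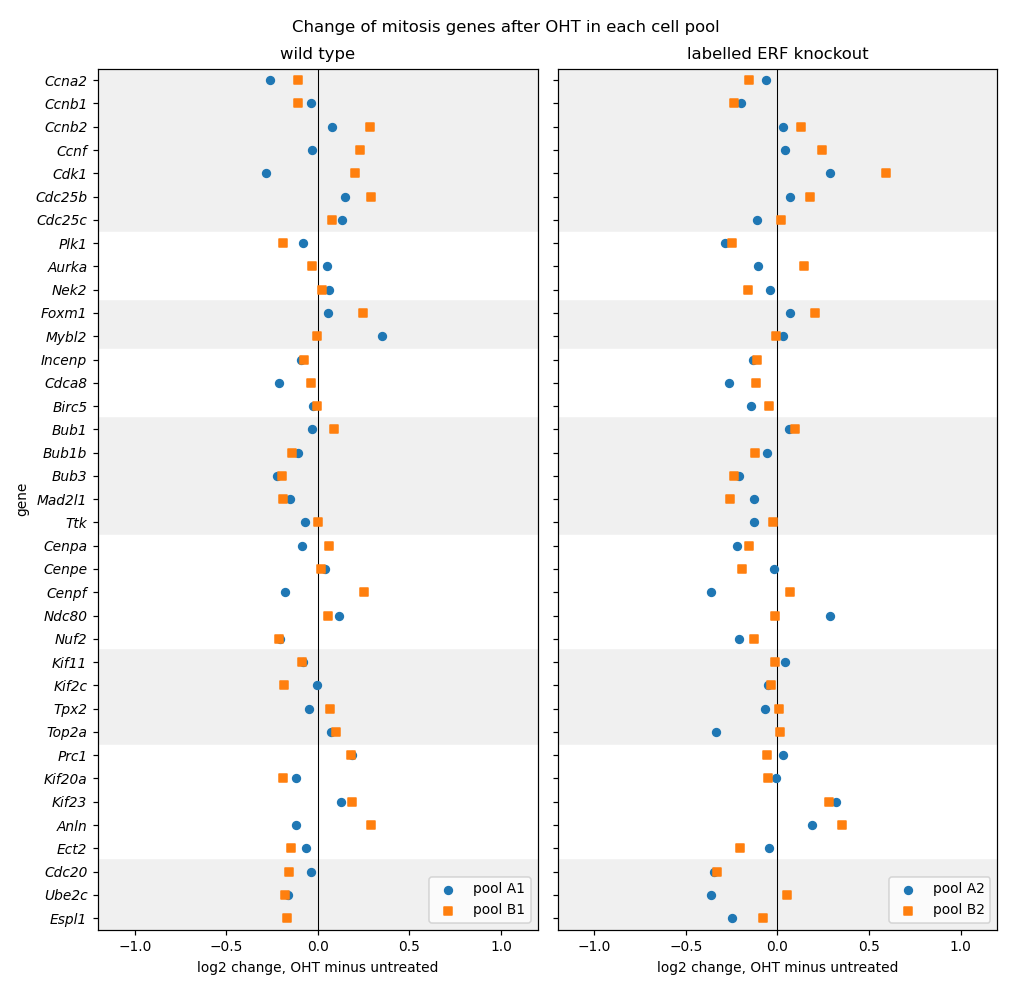
Change after OHT of each of the 37 mitosis genes, as the log2 level with OHT minus untreated in the same pool, for wild type pools A1 and B1 (left) and labelled knockout pools A2 and B2 (right). Grey and white bands mark roles, and Espl1 has no point for A1. The points lie mainly within 0.4 of 0, and those of Cdc20 and Plk1 in the right panel lie below 0 in both pools.

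In the labelled knockout the median change after OHT was -0.09 (all genes 0.04), with 12 genes above 0 and 25 below. On group means its direction depended on single arrays, where a left-out array sets unequal pools against each other. It was 0.10 without the A2 array with OHT and 0.097 without the untreated B2 array. It was -0.28 without the untreated A2 array and -0.32 without the B2 array with OHT. Within pools the median change was -0.061 in A2, with 67.6% of the mitosis genes below 0, and -0.035 in B2, with 62.2% below. Of all genes 44.4% were below 0 in A2 and 45.4% in B2. Limma on group means called 0 mitosis genes and 0% of all genes, with 414 genes higher and 192 lower at an unadjusted p under 0.05. The paired limma fit called 2 mitosis genes, both lower, Cdc20 and Plk1. It called 10.4% of all genes (6.03% higher and 4.38% lower), and 2 of 37 lower is close to that background. OHT was above untreated in both pools for 8 genes and below in both for 19, where all genes had 37.8 and 29.7%. Its 95% intervals for the 37 genes lay between -0.66 and 0.74, short of 2-fold, while on group means 28 of the 37 did not reach 2-fold. The split of all genes in this fit depended on the scaling: 911 were higher and 662 lower as scaled here, 736 and 1446 with arrays centred on their median, and 730 and 771 after quantile normalization, where 6 and 1 mitosis genes were lower.

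Cdc20, the activator of the APC/C, read 7.02 in A2 and 7.09 in B2 untreated and 6.67 and 6.76 after OHT. Both treated arrays lay below both untreated ones and below the 4 wild type arrays, which read 6.83 to 7.15. The change was -0.34 (95% interval -0.47 to -0.21, paired limma adjusted p = 0.015), and it was not called on group means (SE 0.18, adjusted p = 1.00). Plk1 read 5.86 and 6.24 untreated and 5.57 and 5.99 after OHT. It was lower in both pools while the groups overlapped, a change of -0.27 (95% interval -0.41 to -0.13, paired limma adjusted p = 0.035; group means, 1.00). In the wild type the same genes changed by -0.10 and -0.13, and the difference between genotypes was not called for either (paired limma, adjusted p = 0.484 for Cdc20 and 0.726 for Plk1).

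The other kinases and cyclins of the labelled knockout did not pass. Cdk1 had the highest value, reading 2.97 and 3.06 untreated and 3.26 and 3.65 after OHT. Both treated arrays were above both untreated ones, a change of 0.44 (paired limma, adjusted p = 0.071). A further Cdk1 probe, well above background on all arrays, gave -0.21, so the sign of Cdk1 depends on the probe. Ccnb1 read 5.53 and 6.26 untreated and 5.34 and 6.03 after OHT. It was lower in both pools by -0.22 (paired limma, adjusted p = 0.058). Aurka read 5.35 and 5.24 untreated and 5.24 and 5.39 after, down in one pool and up in the other.

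The rest of the labelled knockout gave small values of both signs. Kif23, the centralspindlin kinesin, read 1.82 and 2.04 untreated and 2.14 and 2.32 after OHT, all treated above untreated, a change of 0.30 (paired limma, adjusted p = 0.059). Anln, the anillin of the cleavage furrow, read 5.02 and 4.82 untreated and 5.21 and 5.17 after, likewise without overlap, a change of 0.27 (adjusted p = 0.127). Bub3 read 4.78 and 5.06 untreated and 4.57 and 4.82 after. It was lower in both pools by -0.22, as in the wild type, and was not called (paired limma, adjusted p = 0.062). Foxm1 read 1.80 and 2.67 untreated and 1.87 and 2.87 after, and Mybl2 read 6.83 and 7.84 untreated and 6.86 and 7.84 after. Both overlapped fully, with the pools about a unit apart and OHT adding 0.14 to Foxm1 and 0.01 to Mybl2. Further probes gave -0.16 for Foxm1, and 0.35 and 0.03 for Mybl2.

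Direction over the 4 pools gives a further view of OHT. In 14 of 37 genes (37.8%) OHT was below untreated in every pool, where 22.4% of all genes were: Ccna2 and Ccnb1, Plk1, the passenger subunits Incenp, Cdca8 and Birc5, the checkpoint genes Bub1b, Bub3 and Mad2l1, Nuf2, the kinesins Kif2c and Kif20a, the RhoA activator Ect2, and Cdc20. In 4 genes it was above untreated in every pool, where 23.1% of all genes were: Ccnb2, Cdc25b, Foxm1 and Kif23. Both lists rest on the probe used for each gene. Incenp, Cdca8, Birc5, Mad2l1, Nuf2 and Kif2c each had a further probe that was above untreated in some pool. The further probe of Foxm1 was below untreated in pool A2. Those of Ccnb1 were below untreated in every pool, and the other genes named had no further probe. The sizes stayed small, since outside dark patches 0 of 35 mitosis genes reached 2-fold in any pool, against 2034 of 14010 genes. Again the sets were not matched for signal level. Markers of other cell types moved with OHT too. Of all genes the paired fit called 7.95% higher and 9.31% lower in the wild type, and 6.03% higher and 4.38% lower in the labelled knockout. The summed signal of 12 trophoblast markers, in units of the array's 75th percentile, went from 77.4 to 118 in pool A1 and from 31.0 to 57.3 in pool B1, and the paired fit called 7 of them higher and 1, Cdx2, lower in the wild type. Of the embryonic stem cell markers Utf1, Tdgf1 and Dppa4 were called lower in the wild type, the last pair by -0.97 and -0.69, and Nanog and Fgf4 higher, Nanog by 1.36. In the labelled knockout 13 of 14 fibroblast markers were above 0 with a median of 0.51, and Vim, Prrx1 and Col1a2 were called higher. Their summed signal went from 157 to 236 in pool A2 and from 165 to 158 in pool B2. The trophoblast markers Gata3 and Tfap2c were called higher there and Hand1 lower (-0.81). The part of such shifts in the mitosis genes was not tested.

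The response to OHT was not shown to differ between the genotypes for any mitosis gene. Limma called 0 of 37 for this difference in both fits, and 0% of all genes, with 166 genes higher and 30 lower at an unadjusted p under 0.05. The median difference was -0.04 (all genes 0.05), and it ran from -0.22 to 0.17 when single arrays were left out. Those fits on group means then set unequal pools against each other. The largest values outside Espl1 were 0.48 for Cdk1, 0.19 for Anln and 0.14 for Kif23 on one side, and -0.25 for Top2a and -0.24 for Cdc20 on the other. Their paired 95% intervals ran from 0.06 to 0.91 for Cdk1 and from -0.43 to -0.06 for Cdc20, before any adjustment.

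The labelled knockout as a group was not shown to differ from the wild type in any mitosis gene. Untreated, 26 of 37 genes were lower with a median of -0.08, where 8004 of all 15116 genes were lower (median -0.02). After OHT 29 were lower with a median of -0.15, where 6819 of all genes were lower (median 0.03). Limma called 0 mitosis genes in either comparison and in both fits, and 0% of all genes. At an unadjusted p under 0.05 there were 38 genes higher and 158 lower untreated, and 216 and 122 after OHT, with 0 mitosis genes among them. The pools differed in this. With A2 alone as the labelled knockout, 30 of 35 genes were below the wild type mean untreated (median -0.22, all genes 55.6% below) and 32 of 37 after OHT (median -0.28, all genes 49.0% below). With B2 alone, 12 of 35 and 12 of 37 were below, with medians of 0.08 in both (all genes 43.5 and 36.0% below).

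The lowest gene of these comparisons was Cdc25c, a CDK1-activating phosphatase. It read 0.18 and 0.10 in the untreated wild type and 0.32 and 0.18 after OHT, but -0.49 and -0.61 in pool A2, against 0.11 and 0.13 in pool B2. Only pool A2 stood apart, and the group difference was -0.33 untreated and -0.48 after OHT. Ndc80, the microtubule anchor of the kinetochore, read 1.41 to 1.53 on the 4 wild type arrays and 1.02 to 1.31 on the 4 of the labelled knockout. All 4 of the latter lay below all 4 of the former, with a difference of -0.32 untreated (paired limma, 95% interval -0.85 to 0.21) and -0.27 after OHT. Bub1b, the checkpoint protein BUBR1, read 3.15 and 3.39 in the untreated wild type and 2.71 and 3.25 in the labelled knockout, a difference of -0.29. Ccnf, an F-box protein that marks proteins for destruction in G2, was the highest undamaged gene untreated with 0.18, and read 5.21 and 4.68 in the wild type and 5.17 and 5.08 in the labelled knockout. Both pairs overlapped. After OHT the other extreme values were -0.42 for Cenpa and -0.38 for Nek2, both low in pool A2 alone, and 0.36 for Cdk1, 0.23 for Ccnf and 0.20 for Anln. The further Cdk1 probe read -2.64 and -2.28 in the wild type after OHT and -3.14 and -2.29 in the labelled knockout, and so was not higher there.

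**Figure D3:**
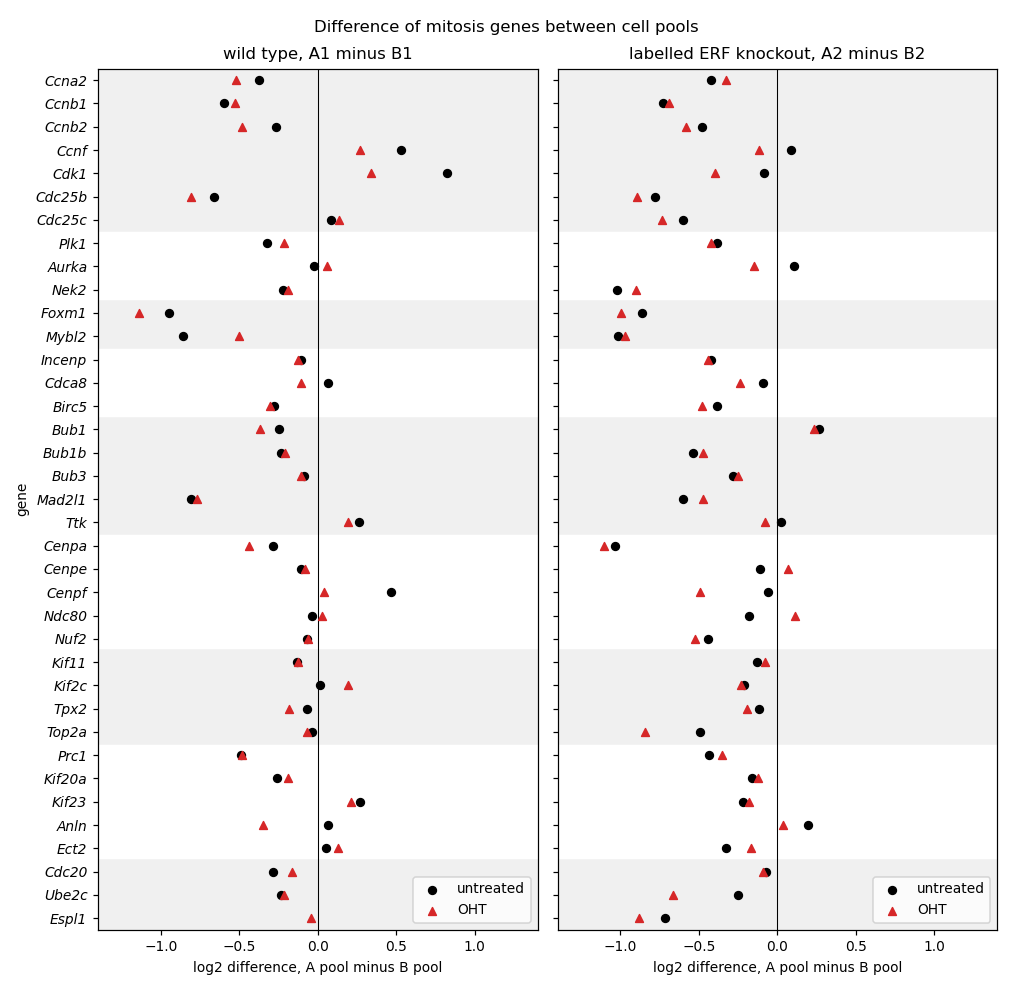
Log2 level in the A pool minus the B pool for each of the 37 mitosis genes, untreated (circles) and after OHT (triangles), in the wild type (left) and the labelled knockout (right). Bands mark roles, and Espl1 has no untreated point in the wild type. In the right panel nearly all points lie left of 0, with Cenpa, Mybl2 and Nek2 near -1.

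The larger differences lay between cell pools. Within the labelled knockout, 35 of 37 genes were lower in pool A2 than in pool B2, with a median of -0.38 against -0.11 for all genes. Limma on pool means called 16 mitosis genes lower and 0 higher, and 29.6% of all genes, 17.1% lower and 12.5% higher. In 26 genes both arrays of A2 lay below both arrays of B2, where 37.9% of all genes did, and in 1, Bub1, both lay above. A fit without patches and with a trended, robust variance called 21 lower and 1 higher, against 48.1% of all genes, 29% lower and 19.1% higher. The 2 arrays of a pool are the same cells without and with OHT, and each side is 1 pool, so these p-values measure the spread between arrays and not between pools.

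Of the transcription factors, cyclins, phosphatases and kinases, some were lower in pool A2 and others did not pass. Foxm1 read 1.80 and 1.87 in A2 and 2.67 and 2.87 in B2, a difference of -0.93 (SE 0.10, adjusted p = 0.018 by limma). Mybl2 read 6.83 and 6.86 against 7.84 and 7.84, a difference of -0.99 (SE 0.12, adjusted p = 0.021). The pools did not overlap in either factor, at both treatments. The size for Mybl2 depended on the probe, as its further probes gave -1.47 and -0.21. Cdc25b read 1.42 and 1.48 in A2 against 2.20 and 2.38 in B2 (-0.84, limma adjusted p = 0.018), and Cdc25c differed by -0.67 (0.021). Ccnb1 read 5.53 and 5.34 in A2 against 6.26 and 6.03 in B2, a difference of -0.71 (SE 0.07, limma adjusted p = 0.018). Ccnb2, its partner cyclin B2, was lower by -0.53 (0.036), while Cdk1 itself differed by -0.24 and did not pass (0.337). The further Cdk1 probe gave -0.72. Nek2, the kinase that parts the centrosomes, read 1.16 and 1.12 in A2 against 2.18 and 2.02 in B2 (-0.96, SE 0.08, adjusted p = 0.015). Plk1 differed by -0.40 (0.041), and Aurka, with -0.02, did not pass (95% interval -0.32 to 0.28).

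Structural genes were also called in part. Cenpa, the histone that marks centromeres, had the lowest value of all, reading 3.24 and 3.02 in A2 against 4.28 and 4.13 in B2. The wild type arrays lay between, at 3.86 and 3.78 in A1, or near B2, at 4.15 and 4.21 in B1. The difference of A2 from B2 was -1.07 (SE 0.08, limma adjusted p = 0.015). Top2a, the topoisomerase that untangles chromosomes, read 3.92 and 3.59 against 4.42 and 4.43 (-0.67, 0.036). In the passenger complex Incenp and Birc5 passed with -0.43 each, and Cdca8 with -0.16 did not. In the checkpoint Mad2l1 (-0.54) and Bub1b (-0.51) passed, while Bub1, the kinase at the kinetochore, read 3.35 and 3.41 in A2 and 3.09 and 3.18 in B2. That was 0.25 higher in A2 and called in the fit without patches (adjusted p = 0.028), not on pool means (0.098). Nuf2 passed with -0.48 but its partner Ndc80 differed by -0.03 (95% interval -0.36 to 0.29). Of the cytokinesis genes Prc1 passed with -0.40, and Anln was higher by 0.12 and did not pass. Espl1 read 2.51 and 2.26 in A2 and 3.22 and 3.14 in B2, a difference of -0.80 that was called without the patch spot (adjusted p = 4.7e-04) and not with it (0.724).

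These calls rest on few arrays. Leaving out any single array, also one of the wild type, lowered the count of mitosis genes called. The calls over all genes fell as well, and the fit then has 1 residual degree of freedom in place of 2. The median stayed between -0.40 and -0.33. After quantile normalization 10 mitosis genes were called with a median of -0.24, where 2020 of all 15116 genes were called higher and 2084 lower.

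In the wild type the pools differed in the same direction but less. Pool A1 was lower than pool B1 in 28 of 37 genes, with a median of -0.14 (all genes -0.06). Limma called 3 lower and 0 higher, and 5.04% of all genes, 2.58% lower and 2.46% higher. All 3 were also among the 16 of the labelled knockout: Foxm1 with -1.04 (SE 0.10, adjusted p = 0.047), Mad2l1 with -0.79 (0.0475) and Cdc25b with -0.74 (0.049). The share of all genes called in both comparisons is not given here, so this overlap is not set against a background. Of all genes 29.7% had the A pool below the B pool in all 4 pairs of arrays. Mad2l1, the checkpoint protein that holds CDC20, read 4.40 and 4.25 in A1 against 5.21 and 5.02 in B1, and 4.56 and 4.43 in A2 against 5.16 and 4.90 in B2. Neither A pool overlapped its B pool in any of these 3 genes. Both arrays of A1 lay below both of B1 in 22 of 37 genes, with Espl1 and its damaged spot among them, where 30.8% of all genes did. They lay above in 7, where 22.2% of all genes did. The fit without patches called 31.6% of all genes, 19.5% lower and 12% higher. Of the mitosis genes it called 14 lower, with Ccnb1 (-0.57), Mybl2 (-0.68) and Prc1 (-0.48) among them, and 2 higher, the higher ones being Cdk1 with 0.58 and Ccnf with 0.40. Further probes gave other signs for the same comparison: the one of Cdk1 gave -0.42, and those of Mybl2 gave -0.48 and 0.44. Those of Mad2l1 kept the sign with smaller values, -0.37 and -0.14, and the one of Foxm1 gave -0.90. Cenpf, a large kinetochore protein, read -2.23 and -2.41 in A1 and -2.70 and -2.45 in B1, higher by 0.25 and not called. Pools A1 and B1 lie on different slides, so pool and slide cannot be told apart there, whereas A2 and B2 share slide 1. Leaving out any single array lowered the count of mitosis genes called and the calls over all genes, with 1 residual degree of freedom left in place of 2.

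Both genotypes together gave 23 of 37 genes (62.2%) with the A pool below the B pool in all 4 pairs of arrays, where 29.7% of all genes were, and 0 genes with A above B in all 4, where 17.4% were. The shared letters A and B do not say that A1 and A2 have a common source. A comparison of the pool differences between genotypes, added after the data were seen, called 0 mitosis genes and 0% of all genes on pool means. The fit without patches called 1 higher, Bub1, and 9 lower in the labelled knockout, with Cenpa (-0.71), Nek2 (-0.76) and Cdc25c (-0.78) among them, against 22.3% of all genes.

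**Figure D4:**
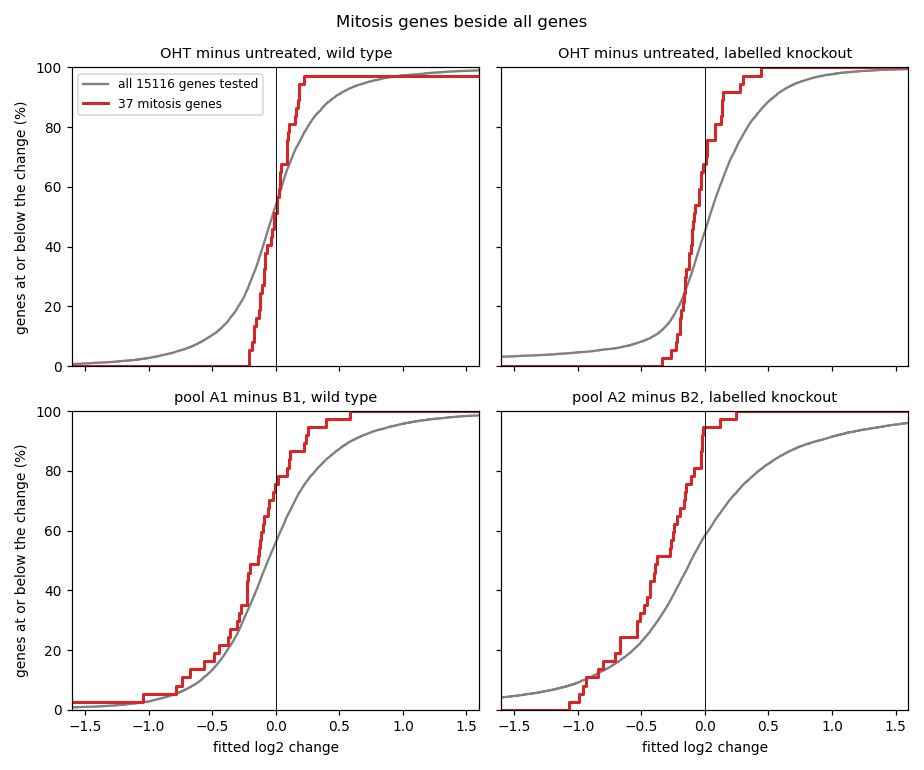
Cumulative share of genes (%) at or below each fitted log2 change, for the 37 mitosis genes (red) and all 15116 genes tested (grey), in 4 comparisons. The red steps are steep and close to 0 after OHT, and lie left of the grey curve over most of the range between pools A2 and B2. Espl1 with its damaged spot falls outside the plotted range in both wild type panels.

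Lists of other cell cycle genes were fitted in the same way. In A2 against B2 limma called 17.1% of all genes lower and 12.5% higher, with a median of -0.11. Of 96 further mitosis genes tested out of 98, limma called 28 lower and 2 higher in A2 against B2, with 80 below 0 and a median of -0.30. The condensin subunit Ncapd2 (-1.01) and the kinetochore subunit Spc24 (-1.10) had the smallest p together with Cenpu (-1.08) and the APC/C enzyme Ube2s (-0.78). Of 51 DNA replication genes 30 were lower and 2 higher, with a median of -0.44, among them Gins2 (-1.14), Gins4 (-1.07) and Mcm2 (-0.83) of the replicative helicase. Of 11 genes of the MuvB and DREAM complexes 3 were lower, the E2F partner Tfdp1 (-0.74), the pocket protein Rbl1 (-0.76) and the MuvB subunit Lin52 (-0.52). After OHT the paired limma fit called 7.95% of all genes higher and 9.31% lower in the wild type, and 6.03% higher and 4.38% lower in the labelled knockout. After OHT in the wild type the paired limma fit called 8 of the 96 higher and 4 lower, led by the cohesin subunit Stag2 (-0.56), Spc24 (0.53), the APC/C subunit Cdc26 (-0.44) and the kinase Pbk (0.41). In the labelled knockout it called 2 higher, the kinetochore gene Dsn1 (0.44) and the CDK1 inhibitor Pkmyt1 (0.37), and 2 lower, Cdc26 (-0.39) and the cohesin subunit Smc3 (-0.27). Among the replication genes it called 1 higher and 3 lower in the wild type and 2 lower in the labelled knockout, where the clamp loader subunit Rfc5 and the origin subunit Orc2 were lower in both.

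The pool difference can be set beside the promoter letters. The 19 tested genes with both motifs in the window had a median of -0.26 in A2 against B2, with 6 called, and the 12 with a window that lacked one or both had -0.46, with 7 called. For OHT in the labelled knockout these medians were -0.12 and -0.07. No test was made of these groups.

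Markers of cell identity differed between the same pools, where limma called 17.1% of all genes lower and 12.5% higher in A2. Of 10 embryonic stem cell markers 9 were lower in A2 than in B2 and limma called 7 of them, among them Pou5f1 (-1.48) and Esrrb (-1.97), and their summed signal was 292 and 301 in A2 and 485 and 530 in B2. In the wild type pools it was 377 to 476. Of 12 trophoblast markers 10 were higher in A2 and 8 were called, such as Krt8 (3.94), Krt18 (3.82) and Hand1 (2.85), with a summed signal of 309 and 361 in A2, 36.1 and 45.4 in B2, 77.4 and 118 in A1 and 31.0 and 57.3 in B1. Elf5 was not well above background. Of 14 fibroblast markers 4 were called higher in A2 and the sums ran from 139 to 236, and of 11 primitive endoderm markers 3 were higher and 1 lower, with sums from 48.4 to 86.4. The part of cell identity, of the share of cells in mitosis and of the lower Erf signal of pool A2 in the mitosis gene difference was not tested. In such bulk samples fewer cells in mitosis and less RNA per cell cannot be told apart.

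Further probes of the same genes bear on these values. Of 15 further probes that were well above background on all arrays and outside patches, 15 had the sign of the probe used for A2 against B2, 8 did for A1 against B1, 11 for OHT in the wild type and 9 for OHT in the labelled knockout. The largest gap between probes of a gene was 0.34 after OHT in the wild type (Nuf2) and 0.65 in the labelled knockout (Cdk1). Between pools it was 1.11 for A1 against B1 and 0.78 for A2 against B2, both in Mybl2.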

How the data were processed

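Total RNA of 8 samples was labelled with Cy3 and hybridised to 1 Agilent array each, per the labels' protocols. The deposited spot intensity values are background-subtracted but not scaled between arrays. Per the file headers, the software was Agilent Feature Extraction, version 11.5.1.1. Median pixel intensity and local background, also deposited, entered normexp. Per the file headers, other columns are 0 or 1 flags for outlier spots, spots well above background and saturated spots. The authors' own normalization and tests are not known here. The value table of the series was not used.

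Of 62976 spots, 59305 were no controls, for 55681 probes. Outlier spots were left out, spots of a probe averaged, and values scaled by the 75th percentile of their array on the log2 scale. Probes were named by accession through a RefSeq table (28026 probes, 21154 genes). A gene entered if its probe passed background on both arrays in 1 or more of the groups. For the 5681 genes with several probes the brightest on average was kept. In all 15116 genes were tested. The 38 mitosis genes had 55 probes, and 12 had several.

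Tests used limma 3.58.1 in R 4.3.3, two-sided, with Benjamini-Hochberg adjustment over all genes tested and a threshold of 0.05: 4 group means for OHT and genotype, and 4 pool means with an OHT effect per genotype for pools. The paired fit took pools as blocks, random for genotypes. It left out dark patches (windows of 11 by 7 spots with a local median under -1, widened by 2 spots), a definition chosen after seeing the data because a window of 21 by 21 spots missed most. The pairing comes from the source names, which give the same pool without and with OHT. The check of this pairing, the correlation over genes of deviations from the group means, gave 0.658 for wild type and 0.442 for labelled knockout (0.752 and 0.719 without patches). Groups that share no pool gave 0.225 to 0.507 (0.414 to 0.559 without patches). The labelled knockout value thus stood above these only without patches, and in the wild type pool and slide cannot be told apart. Per the series text, replicates are biological. Scripts were tested on simulated data. Tables and figures were made with matplotlib 3.10.9, pandas 2.3.3, numpy 2.4.6 and scipy 1.17.1 under Python 3.11.15.

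The mitosis genes, the other lists and the tests were chosen with earlier results of these data known. Values on every array are given for Ccnb1, Cdk1, Plk1, Aurka, Foxm1 and Mybl2, for the members with the 3 largest changes each way in a comparison, and for up to 6 that passed, and of other lists up to 4 genes with the smallest p. Genes in lists of calls are named besides, and 1 gene that the rule names is not reported here. The number of arrays limits the precision. Alternatives were the normalization, background correction, filter, probe rule, variance, slide, pairing, patches and leaving out each array.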

Additional observations from a re-analysis of the deposited data

How the results depend on the processing

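For OHT in the wild type, 0 mitosis genes were called under all settings but 1, where the paired fit without patches after quantile normalization called 1. The median of -0.01 moved to 0.037 with quantile normalization (0.043 in the paired fit), to 0.061 with normexp and to -0.037 within slide 1, and ran from -0.092 to 0.052 when each array was left out. For OHT in the labelled knockout the count stayed 0 with the replicate block alone and became 1 with the replicate block and a trended variance (1 also without the planned patches), 2 with patches of the smaller window out, 6 with arrays also centred and 1 with quantile normalization. The last 3, chosen after seeing the data, use the same pairing of the pools. The median of -0.09 moved to -0.036 with quantile normalization, -0.058 with normexp, -0.047 with the mean of all probes and -0.18 with the paired fit centred, and ran from -0.32 to 0.10 without single arrays. For the difference of the OHT effects the median of -0.04 moved to -0.10 with normexp, -0.0067 within slide 1, -0.10 with the paired fit centred and -0.070 with it after quantile normalization, and from -0.22 to 0.17 without single arrays. The labelled knockout against the wild type had medians from -0.22 to 0.081 untreated and -0.28 to 0.075 after OHT without single arrays, and -0.026 after OHT with slide as a block and within slide 1. No call was made in these 3 comparisons.

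For A1 against B1 the count of 3 became 5 with normexp, 7 with array weights, 7 if all 8 arrays had to exceed background, 6 with patches out, 16 with each of the 3 trended variances and 0 without a filter and with the mean of probes. Of all genes 372 were called higher and 390 lower in the main fit. Normexp gave 695 and 1783, array weights 1114 and 1520, and the rule of all 8 arrays 1037 and 1577. Leaving out patches of the smaller window gave 987 and 1237. The 3 trended variances gave 1351 and 2297, 1441 and 2430, and 1820 and 2955. No filter gave 26 and 5, and the mean of probes 58 and 15. The count of mitosis genes fell without any single array, as did the calls over all genes. Its median of -0.14 moved to -0.048 with quantile normalization, -0.076 with normexp and -0.093 with arrays centred, and ran from -0.17 to -0.13 without single arrays. For A2 against B2 the count of 16 became 10 with quantile normalization and 6 without a filter. Of all 15116 genes 1888 were called higher and 2586 lower, and 2020 and 2084 with quantile normalization. Without a filter it was 963 and 1009 of 21085 genes. The count of mitosis genes fell without single arrays, where the fit keeps fewer arrays and the calls over all genes fell too. Its median of -0.38 moved to -0.24, to -0.33 without a filter and to -0.32 with the mean of probes, and ran from -0.40 to -0.33. No result changed sign with a call, and the cause of the other shifts was not tested. A single gene kept its side of the threshold in 6398 cases, lost it in 170 and gained it in 85, and 192 values moved by more than the spread of the replicates. Arrays with a dim spot or a dark patch and 2 arrays a group limit what can be seen.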
